A study of Mus musculus with 96 samples.

Results

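Fatty acid oxidation and ketogenesis genes are 36 genes chosen by symbol, and all 36 were found once each among the 21990 genes of the table, on 17 chromosomes. They are the nuclear receptor Ppara, 6 genes of fatty acid activation and the carnitine shuttle, 4 acyl-CoA dehydrogenases, 3 genes of electron transfer, 5 of hydration to thiolysis, 3 auxiliary mitochondrial enzymes, 10 peroxisomal genes, the ketone body enzymes Acat1 and Bdh1, and Pdk4 and Vnn1. They were followed in liver and pancreatic islets of 48 male C57BL/6N mice, bought at 4 weeks of age. Mice received either a chow diet (CD, LabDiet 5001 with 13.5% fat) or a high-fat diet (HFD, Research Diets D12492 with 60% fat), and 4 mice of each diet were taken at weeks 4, 8, 12, 16, 20 and 24. The labels name no other treatment and no altered gene, and the 2 diets come from different makers, so that fat and the other components of the diets cannot be told apart. Islets were isolated with collagenase, separated on a gradient and picked by hand. The unit is FPKM, the fragments of a gene scaled for transcript length and for the size of the library, which is a level per length, and the read counts behind the values are not in the table, so that the depth of a value is unknown.

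Mitochondria shorten fatty acids by 2 carbons per round. An acyl-CoA synthetase activates the fatty acid, CPT1A, SLC25A20 and CPT2 carry it across the inner membrane as its carnitine ester, and a dehydrogenase, a hydratase, a second dehydrogenase and a thiolase complete the round. Peroxisomes shorten the very long and branched chains, and the liver turns the acetyl-CoA of this pathway into ketone bodies for other tissues. PPARalpha, which binds DNA together with RXR and is activated by fatty acids, is known to raise many of these genes in liver, above all in fasting. The labels do not give the feeding state of the mice at collection, and its part in the results was not tested. In beta cells HADH also restrains glutamate dehydrogenase, and its loss is known to cause excess insulin secretion.

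Each tissue could be recognised by its markers. The summed FPKM of 8 hepatocyte markers was between 46100 and 93800 in liver and between 241 and 1060 in islets, and that of 9 islet endocrine markers was between 598000 and 1020000 in islets and between 0 and 3790 in liver, where 1 CD library of week 12 was the highest with an insulin share of 0.14% of its length-weighted signal. Acinar markers, 11 genes of digestive enzymes, were present in every islet library, with sums between 4380 and 160000 FPKM. Fewer cells of a type and less RNA per cell cannot be told apart in these whole-tissue libraries.

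A pair of the members lies head to head in the genome. Hadha and Hadhb encode the subunits of the mitochondrial trifunctional protein, which performs the last steps for long chains, and their starts on chromosome 5 are 272 bases apart. The RefSeq sequence (GRCm38.p6) of the 250 bases before the start of Hadha, chr5:30154981-30155230 on the minus strand, lies wholly between the genes and is shown because it belongs to both. It contains 58.8% G and C.

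Hadha upstream: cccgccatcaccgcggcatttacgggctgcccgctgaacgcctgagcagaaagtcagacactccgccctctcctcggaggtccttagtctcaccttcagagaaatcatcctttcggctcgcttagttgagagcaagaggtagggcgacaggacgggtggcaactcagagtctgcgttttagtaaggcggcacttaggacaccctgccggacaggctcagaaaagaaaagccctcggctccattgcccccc

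PPARalpha and RXR bind repeats of the site AGGTCA with 1 base between them. RefSeq windows of 250 bases before the start were given for 29 members in 32 windows, and both strands were searched for this repeat with at most 2 mismatches in its 12 fixed letters. Of the 32 windows 2 held a match, 6.25%, beside 3.24% of all 32851 windows of the same length, and no member window held one with fewer mismatches. The 2 windows belong to Echs1, an enoyl-CoA hydratase, and Etfa, a subunit of the electron transfer flavoprotein. The next best matches, with 3 mismatches, were those of Acadm, Bdh1, Etfb, Hadh and Slc27a2. How many of all windows held a match with 3 mismatches was not counted. The stretches of Echs1 and Etfa, and of Acadm and Slc27a2 as examples, are shown with the matched 13 bases in capitals, 5′ to 3′ on the strand of the gene. They lie at chr7:140116462-140116534 (Echs1), chr9:55512278-55512350 (Etfa), chr3:153944850-153944893 (Acadm), all on the minus strand, and chr2:126552774-126552839 (Slc27a2) on the plus strand. A match is a likeness of letters and not a measured binding site, and repeats farther from the start were not searched.
Echs1: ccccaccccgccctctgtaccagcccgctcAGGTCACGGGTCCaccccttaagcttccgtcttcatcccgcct
Etfa: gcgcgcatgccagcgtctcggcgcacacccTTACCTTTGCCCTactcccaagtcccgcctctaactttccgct
Acadm: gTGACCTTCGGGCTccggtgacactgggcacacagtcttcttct
Slc27a2: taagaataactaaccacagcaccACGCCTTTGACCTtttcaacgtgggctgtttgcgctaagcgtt

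In CD mice the liver held far more of this pathway than the islets. The 36 genes made up between 0.77% and 1.747% of the length-weighted signal of a CD liver library and between 0.175% and 0.225% of a CD islet library. On the log2(FPKM + 1) scale, 33 of the 36 genes were higher in liver, Hadh and Pdk4 were higher in islets, and Abcd2 did not differ beyond the threshold (adjusted p = 0.0969). Ppara, Slc27a2 and Vnn1 are among the 33, but they were under the filter of 1 FPKM in islets. They entered this fit through liver, where they are high. Of all 13074 genes tested 95.4% differed between the tissues in one direction or the other, so that the count itself does not set the members apart, while the median difference was 2.75 in the members and -0.66 in all genes.

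Levels over the 24 CD mice show which steps differed most. Slc27a2, a peroxisomal and microsomal acyl-CoA synthetase for very long chains, had 620 ± 141 FPKM (SD) in liver and 0.536 ± 0.219 in islets, and the peroxisomal thiolase gene Acaa1b had 634 ± 233 and 0.779 ± 0.394. Ppara had 43.4 ± 8.65 FPKM in liver and 0.25 ± 0.0541 in islets, under the filter of 1 FPKM in every islet comparison. These 3 genes had the largest ratios between the tissues. Acaa1a and Acaa1b are near-identical copies 183958 bases apart on chromosome 9, and how the authors' processing divided reads between them is uncertain.

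Hadh went the other way. This short-chain 3-hydroxyacyl-CoA dehydrogenase was the highest of the 36 genes in islets with 338 ± 41.3 FPKM and had 175 ± 24.2 FPKM in liver (log2 difference of liver to islets -0.95 ± 0.04 SE, adjusted p = 3.53e-27). The second in islets was Etfb, the other subunit of the electron transfer flavoprotein, with 58.1 ± 9.97 FPKM, near Abcd3 with 56.4 ± 6.37 and Hadhb with 54.1 ± 4.84, which overlap within their spread. The rate-setting Cpt1a had 19.5 ± 4.0 FPKM in islets and 99.2 ± 25.9 in liver. Of the 36 genes 5, Ppara, Slc27a2, Vnn1, Acaa1b and Abcd2, had a mean under 1 FPKM in CD islets.

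**Figure D1:**
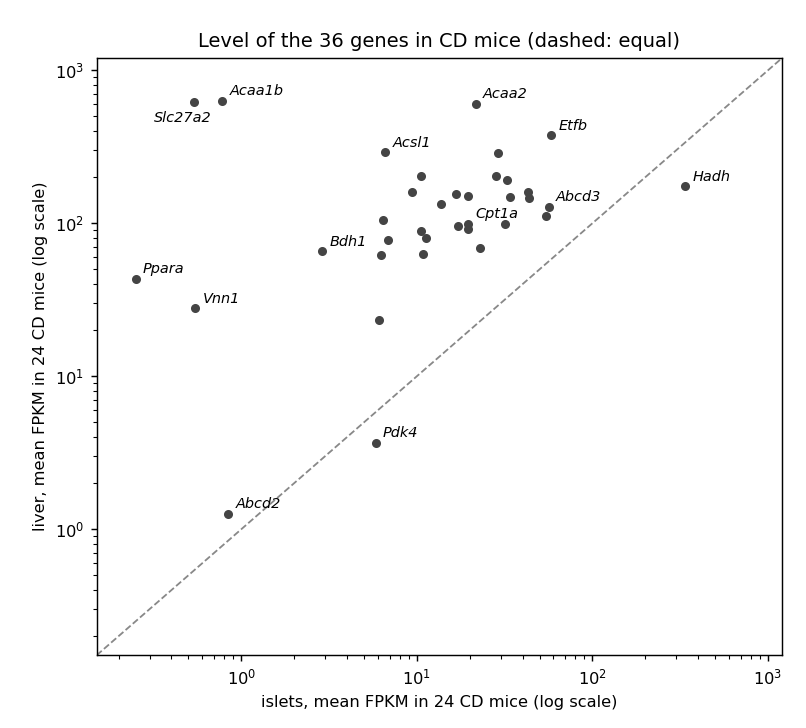
Mean FPKM of each of the 36 genes in 24 CD mice, islets on the horizontal and liver on the vertical axis, both on log scales; the dashed line marks equal levels. Hadh (338 in islets, 175 in liver) and Pdk4 (5.84 and 3.68) lie under the line, and Slc27a2 and Acaa1b lie farthest above it.

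In liver, HFD raised most of the pathway at week 8. Of the 36 genes 31 were higher in HFD mice and none was lower, while 6.17% of the 10034 genes tested at this week were higher and 1.33% lower. All 36 differences were positive, with a median of 0.86 on the log2 scale beside 0.04 over all genes, and 10 of the 31 reached a log2 difference of 1. Abcd2, among the 31, met the filter through the HFD livers, where it was high. Etfb, Echs1, Acaa2, Crot and Pdk4 did not pass the test. The members' share of the length-weighted signal was between 0.799% and 1.06% in the 4 CD livers and between 1.59% and 1.818% in the 4 HFD livers of week 8, without overlap.

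Vnn1 had the largest change. It encodes pantetheinase, which recycles pantothenate, the vitamin in coenzyme A, and is a known PPARalpha target (GRCm38 chr10:23894688-23905344). At week 8 its FPKM were 10.67, 11.26, 7.56 and 4.56 in CD mice and 104.98, 78.46, 117.29 and 81.51 in HFD mice. Every HFD mouse was above every CD mouse, and the means differed by a ratio of 11.2 (log2 difference 3.39 ± 0.25 SE, adjusted p = 0.000686). Vnn1 was also higher at week 12 (71.4 ± 15.5 against 30.3 ± 12.3 FPKM, adjusted p = 0.027) and at week 20 (80.6 ± 9.44 against 15.1 ± 9.29 FPKM, adjusted p = 0.0297). At week 24 the groups overlapped, with CD between 27.6 and 76.64 and HFD between 37.33 and 106.6 FPKM.

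The receptor gene rose at week 8 as well. Ppara had 47.48, 30.5, 44.91 and 34.54 FPKM in CD and 64.13, 67.85, 69.82 and 69.26 FPKM in HFD livers. The groups did not overlap, and the log2 difference was 0.79 ± 0.14 (adjusted p = 0.0115). At weeks 12 to 24 its differences were between 0.11 and 0.31 and none passed the test.

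At the entry of the pathway, Cpt1a, whose product is the malonyl-CoA sensitive gate of the carnitine shuttle, had 92.86, 55.91, 77.21 and 63.67 FPKM in CD and 120.28, 131.18, 151.07 and 111.07 FPKM in HFD livers of week 8. All HFD mice were above all CD mice (0.83 ± 0.16, adjusted p = 0.018), but the call was lost without mouse CD208, HFD212 or HFD213 (adjusted p between 0.0542 and 0.0549), mice being named by diet and labelled number. The synthetase Acsl1 rose from 234 ± 30.3 to 467 ± 58.1 FPKM (ratio 2.0, adjusted p = 0.00368). Slc25a20, the carnitine-acylcarnitine translocase, rose by 0.91 ± 0.13, Cpt2 by 0.49 ± 0.09 and Slc27a2 by 0.60 ± 0.15. Crat, the carnitine acetyltransferase, had the largest change of this group, with 13.4 ± 5.07 FPKM in CD and 43.8 ± 14.1 in HFD mice (1.65 ± 0.35, adjusted p = 0.0305).

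The 4 acyl-CoA dehydrogenases, which take fatty acids of descending chain length, all rose at week 8. Medium-chain Acadm changed most, from 151.19, 140.76, 133.79 and 117.33 FPKM in CD to 321.98, 287.19, 358.33 and 273.9 FPKM in HFD livers (1.19 ± 0.11, adjusted p = 0.00188). Long-chain Acadl rose by 0.82 ± 0.09 and very-long-chain Acadvl by 0.39 ± 0.08. Short-chain Acads had 73.75, 66.67, 68.31 and 55.73 FPKM in CD and 94.14, 98.43, 98.97 and 88.8 FPKM in HFD livers (0.52 ± 0.09, adjusted p = 0.0134). The 4 HFD values of Acads lay in a narrow band above all CD values.

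Their electrons pass through the electron transfer flavoprotein to its ubiquinone oxidoreductase. The oxidoreductase gene Etfdh rose by 0.85 ± 0.13 at week 8, and Etfa by 0.33 ± 0.07. Etfb, at 352 ± 45.8 FPKM in CD and 388 ± 39.2 in HFD mice, had a difference of 0.14 ± 0.12 (adjusted p = 0.507), and the groups overlapped.

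In the last steps, Hadha rose by 0.69 ± 0.10 and its neighbour Hadhb by 0.90 ± 0.09. Hadh had 170.62, 150.28, 136.95 and 128.36 FPKM in CD and 282.37, 295.52, 332.24 and 254.08 FPKM in HFD livers of week 8 (0.99 ± 0.11, adjusted p = 0.0033). The lowest HFD value was far above the highest CD value. Hadh was also higher at week 12 (277 ± 49.5 against 199 ± 8.83 FPKM, adjusted p = 0.0477). Echs1 had a difference of 0.23 ± 0.10 at week 8 and the thiolase gene Acaa2 one of 0.28 ± 0.08, and neither passed the test (adjusted p = 0.211 and 0.073).

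The auxiliary enzymes handle the double bonds of unsaturated fatty acids. Eci1, an enoyl-CoA isomerase, had 132.78, 131.72, 122.13 and 99.2 FPKM in CD and 212.95, 218.37, 246.27 and 214.56 FPKM in HFD livers of week 8 (0.88 ± 0.11, adjusted p = 0.00368). Ech1, a dienoyl-CoA isomerase, had 279.59, 258.77, 252.74 and 166.73 FPKM in CD and 471.16, 465.77, 539.91 and 419.93 FPKM in HFD livers (1.00 ± 0.16, adjusted p = 0.00953). The groups were apart in both genes, and Decr1, a dienoyl-CoA reductase, rose by 0.86 ± 0.11.

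Among the peroxisomal genes, 9 of 10 rose at week 8, Crot being the exception (0.76 ± 0.27, adjusted p = 0.144). Acaa1b had 601.77, 672.56, 551.04 and 423.44 FPKM in CD and 1263.24, 1448.78, 1344.99 and 1106.04 FPKM in HFD livers (1.21 ± 0.15, adjusted p = 0.00386), which made it the highest of the 36 genes in HFD livers of that week. Hsd17b4, the D-bifunctional protein of peroxisomal oxidation, had 146.13, 154.65, 130.79 and 129.62 FPKM in CD and 281.77, 265.04, 268.3 and 214.31 FPKM in HFD livers (0.87 ± 0.10, adjusted p = 0.00368). Both genes had non-overlapping groups.

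Pex11a and Abcd2 had the largest changes of the peroxisomal genes. Pex11a, which takes part in peroxisome division, rose from 42.1 ± 6.87 to 121 ± 22.4 FPKM (1.49 ± 0.16, adjusted p = 0.00241). Abcd2, a peroxisomal transporter of very long chains, had 1.29, 0.65, 0.92 and 0.13 FPKM in CD and 6.25, 7.29, 8.24 and 1.93 FPKM in HFD livers (1.91 ± 0.37, adjusted p = 0.0219). All but 1 of the CD values lay under 1 FPKM, so that Abcd2 met the filter at week 8 through the HFD livers, where it was high. Its groups did not overlap, but it lost its call without any of CD205, CD207 and CD208 and HFD211, HFD212 and HFD213, with adjusted p between 0.0566 and 0.071. Ehhadh, the L-bifunctional protein, rose at week 8 (1.23 ± 0.23, adjusted p = 0.018) and at week 20, from 61.1 ± 10.6 to 115 ± 23.9 FPKM (0.89 ± 0.16, adjusted p = 0.0252).

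The ketone body enzymes among the members, Acat1 and Bdh1, rose with the oxidation genes. Acat1, the mitochondrial thiolase that forms acetoacetyl-CoA, had 176.16, 172.69, 131.43 and 115.83 FPKM in CD and 310.45, 304.83, 303.83 and 284.56 FPKM in HFD livers of week 8 (1.03 ± 0.14, adjusted p = 0.00492). Bdh1, which interconverts acetoacetate and 3-hydroxybutyrate, went from 56.9 ± 3.18 to 122 ± 19.4 FPKM (1.08 ± 0.12, adjusted p = 0.00295). Both were also higher at week 12, Acat1 by 0.66 ± 0.14 and Bdh1 by 0.76 ± 0.13.

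Pdk4, the kinase that shuts pyruvate dehydrogenase and so spares glucose (GRCm38 chr6:5483351-5496278), varied more between mice than any other member in liver. Its spread within groups was 1.43 on the log2 scale, where the median of the 36 genes was 0.25. At week 8 the CD livers had 18.37, 3.43, 0.98 and 1.02 FPKM and the HFD livers 34.07, 94.25, 3.09 and 1.19 FPKM, and the groups overlapped. Its largest difference was at week 20, with 0.87, 1.3, 1.9 and 2.61 FPKM in CD and 37.13, 4.7, 54.61 and 25.78 FPKM in HFD mice. There every HFD mouse was above every CD mouse, yet the difference of 3.20 ± 0.67 did not pass the test (adjusted p = 0.0594), although it did with median-ratio scaling (3.11 ± 0.62, adjusted p = 0.0384).

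**Figure D2:**
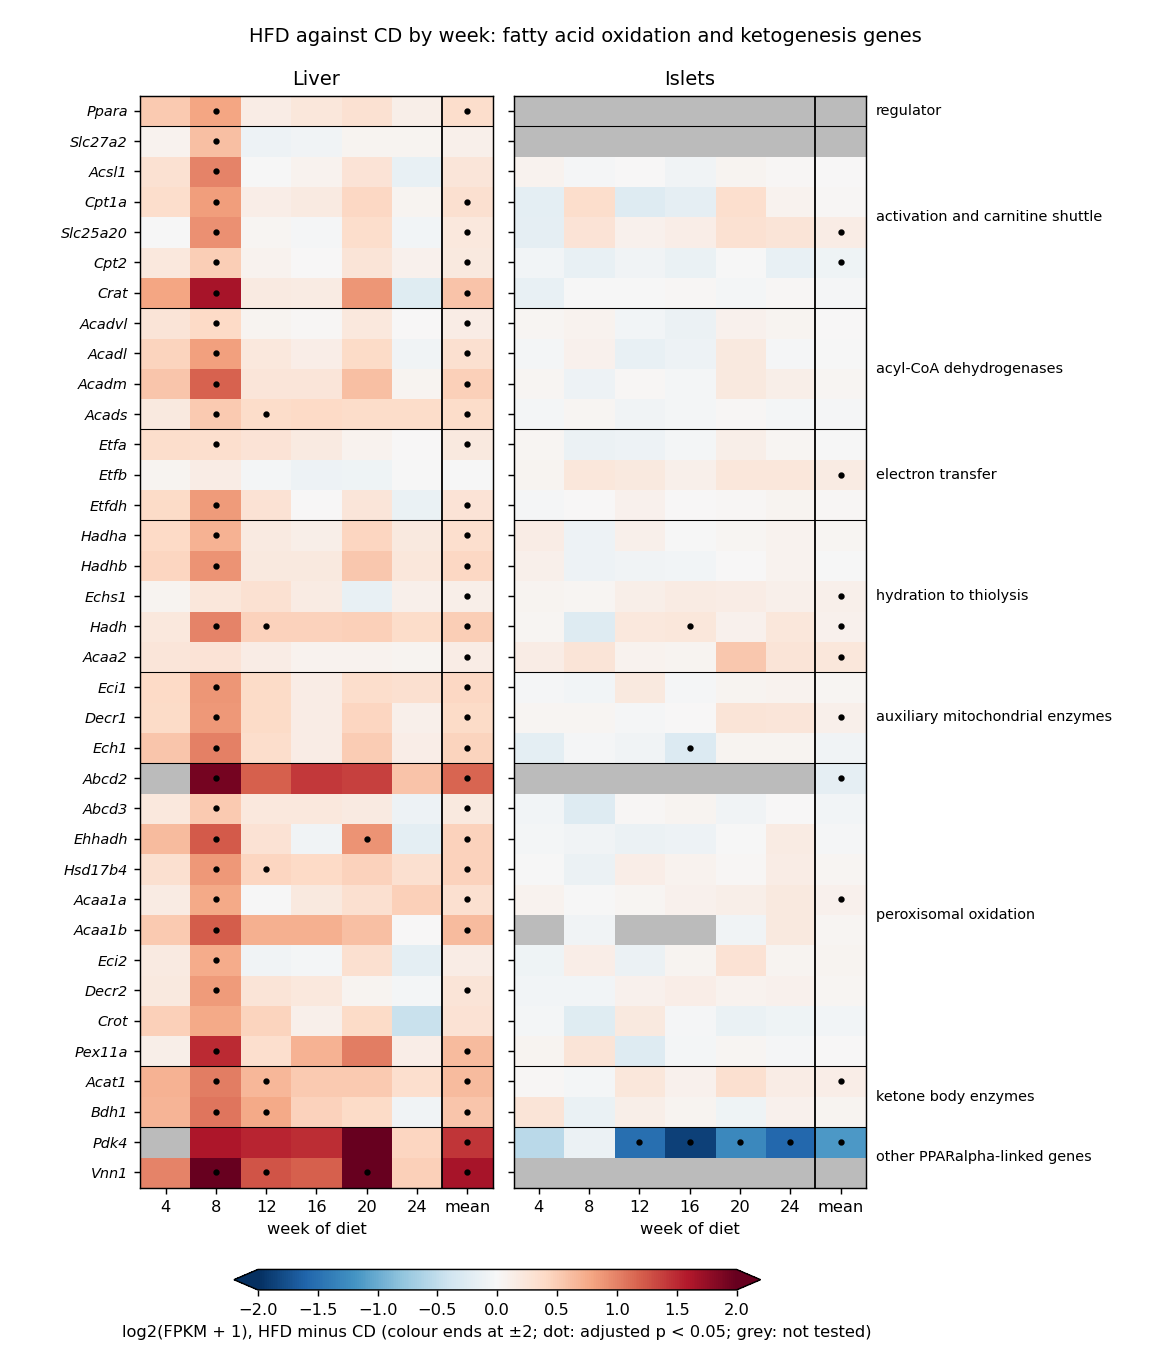
Difference in log2(FPKM + 1) between HFD and CD (colour, ends at ±2) for the 36 genes in liver (left) and islets (right) at each week and as the mean over the weeks, ordered by role; dots mark adjusted p under 0.05 and grey marks genes that were not tested. Week 8 in liver holds 31 dots, and the islet panel is pale apart from Pdk4.

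Other weeks in liver had fewer calls. At week 4 none of the 34 genes tested passed, and 33 differences were positive (median 0.35, all genes 0.09), while 0.0405% of all genes were higher and 0.0101% lower. An unadjusted p under 0.05 was found in 15 of them (44.1%) and in 12.9% of all genes. At week 12, 6 genes were higher (Acads, Hadh, Hsd17b4, Acat1, Bdh1 and Vnn1) and none lower, where 9.42% of all genes were higher and 1.22% lower. The count of week 12 was 1 without CD307 or CD308 or HFD315 or HFD318, 2 without HFD313 and 10 without HFD316, and it was 3 with libraries scaled by their median ratio. At week 16 none passed and 8 had an unadjusted p under 0.05, 22.2% beside 22.6% of all genes (1 passed without CD401 and 2 without CD403 or HFD411), although 6.74% of all genes were higher and 0.682% lower. At week 20 the 2 calls were Ehhadh and Vnn1 (all genes 1.73% higher and 0.746% lower), with none left without CD501, 1 without CD502 or CD505 or HFD511, HFD516 or HFD517, and 5 without HFD518. At week 24 none passed (all genes 0.65% higher and 0.187% lower), and 3 had an unadjusted p under 0.05, 8.33% beside 15.6% of all genes. The members' median difference was 0.26, 0.17, 0.38 and 0.05 at weeks 12, 16, 20 and 24. Over all genes the medians at these weeks were 0.11, 0.09, 0.07 and 0.06.

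Whether week 8 differed from the other weeks was tested after these values were seen. Against the mean of the other 5 weeks, the HFD difference at week 8 was larger in all 36 genes, with a median of 0.59 beside -0.05 over all genes. Only Vnn1 passed the adjusted test (2.09 ± 0.45, adjusted p = 0.0313), and 0.0552% of all genes did in this direction. For the other 35 genes a particular effect of week 8 was thus not shown at this threshold. An unadjusted p under 0.05 was found in 28 of the 36 genes, and the share of all genes with such a p was not counted. In the planned contrast of weeks 4, 8 and 12 against weeks 16, 20 and 24 no member passed and 0.175% of all genes were called. There 10 members had an unadjusted p under 0.05, 27.8% beside 7.91% of all genes.

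**Figure D3:**
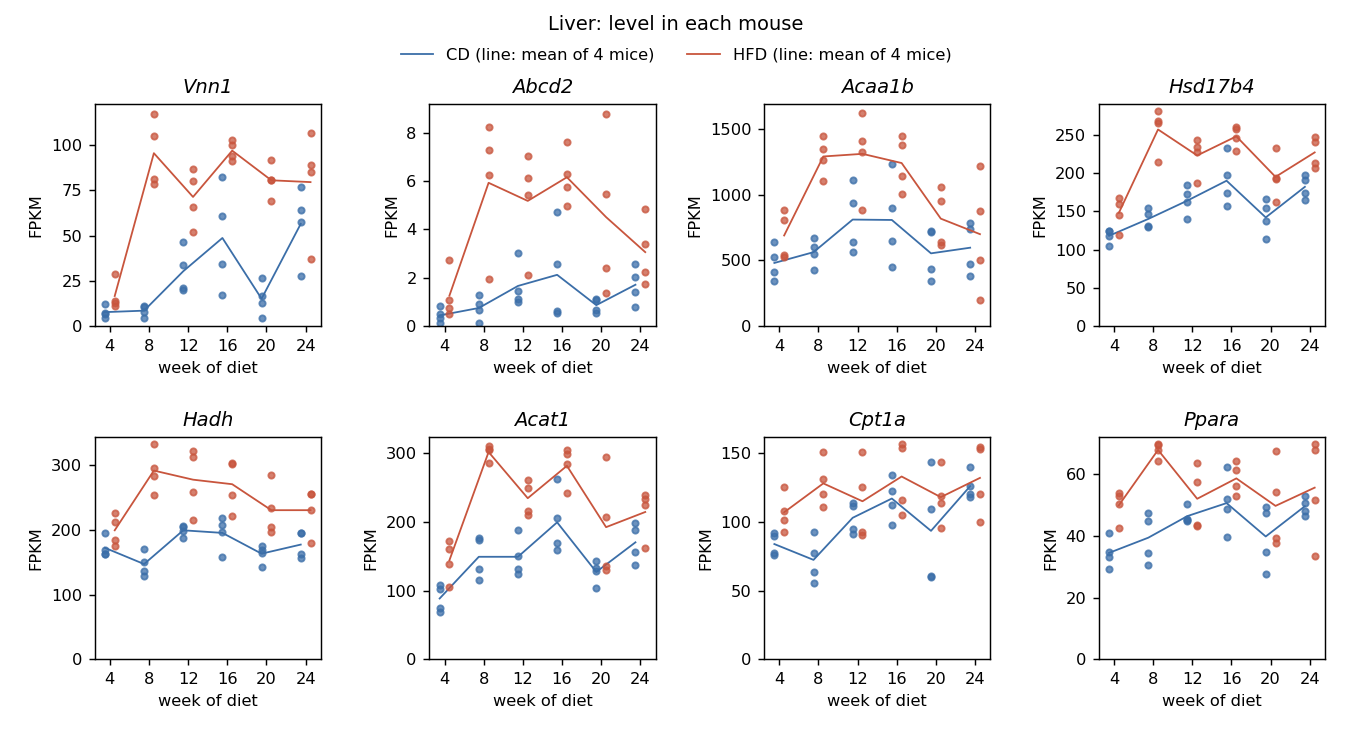
FPKM of 8 genes in each liver (points) by week on the diet, with CD in blue and HFD in red; lines join the means of 4 mice and the vertical axes start at 0. HFD points lie above CD points at week 8 in all 8 panels, and CD levels are higher from week 12 on than at week 4 in several of them.

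The CD level itself was not constant. Over the 6 weeks 29 of the 36 genes differed in CD livers, beside 55% of all genes. The lowest mean fell in week 4 in 24 genes, and the highest in week 12 or later in 33. Vnn1 went from 7.69 FPKM at week 4 to 56.5 at week 24 in CD mice, Crat from 8.67 to 42.0, Acadm from 94.4 at week 4 to 220 at week 16, and Acsl1 from 162 to 387. Etfb, Acads and Echs1 had their highest CD level at week 4. The path was not steady, since Vnn1 went from 48.7 FPKM at week 16 to 15.1 at week 20 and Acadm from 220 to 133. The mean share of the members in the signal of CD livers was 0.852% at week 4 and 1.379% at week 16, and after 1.04% at week 20 it was 1.344% at week 24. In HFD livers it was 1.069% at week 4, highest at week 8 with 1.736%, and 1.4% at week 24. Week, age and day of collection cannot be told apart.

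**Figure D4:**
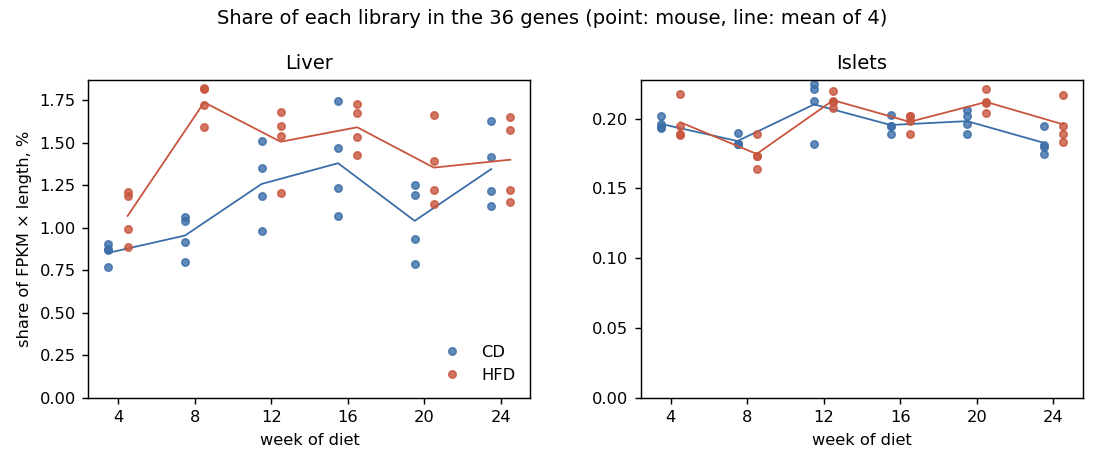
Share of the 36 genes in the length-weighted signal (FPKM times length) of each library in percent, for liver (left) and islets (right), with a point per mouse and lines through the means of 4. In liver the CD and HFD points are apart at week 8 (0.799 to 1.06% against 1.59 to 1.818%) and overlap at the other weeks. In islets both diets lie near 0.2%.

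Averaged over the 6 weeks, 31 of the 36 genes were higher in HFD livers and none was lower, beside 35.8% of all genes higher and 6.78% lower. The members' median was 0.34 and that of all genes 0.08. By the size of the moderated t the leading genes were Vnn1 (1.65 ± 0.17), Hsd17b4 (0.47 ± 0.05), Hadh (0.49 ± 0.05), Acat1 (0.63 ± 0.08), Acads (0.37 ± 0.05), Abcd2 (1.17 ± 0.16), Ech1 (0.45 ± 0.07) and Eci1 (0.41 ± 0.06). Slc27a2, Acsl1, Etfb, Eci2 and Crot did not pass. Pdk4 passed (1.43 ± 0.41, adjusted p = 0.0045) but not without week 20 (1.08 ± 0.46, adjusted p = 0.0626). Without week 8, 10 of the 31 calls were lost. With median-ratio scaling 21 genes were higher, and Etfb was lower (-0.12, adjusted p = 0.049).

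Other genes of the pathway, listed by their role, were read beside the members at week 8 in liver. At this week 6.17% of all genes were higher and 1.33% lower. Of 10 other mitochondrial oxidation genes tested 5 were higher and none lower, among them Acad11 (0.68) and Hsd17b10 (0.94). Of 13 other peroxisomal genes 3 were higher and Nudt7, a CoA diphosphatase, was lower (-1.34, adjusted p = 0.049). Of 5 other ketone body genes tested 2 were higher and 1 was lower.

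Of 20 tested partners and further known targets of PPARalpha, 8 were higher and none lower at week 8, beside 6.17% and 1.33% of all genes. At the other weeks fewer of this list were higher and none was lower. The counts were 0 of 19 at week 4, 2 of 20 at weeks 12 and 16, 4 of 19 at week 20 and 1 of 18 at week 24. Of all genes 0.0405%, 9.42%, 6.74%, 1.73% and 0.65% were higher at weeks 4, 12, 16, 20 and 24. The omega-hydroxylase gene Cyp4a14 had 84.43, 32.94, 9.5 and 2.45 FPKM in CD and 893.16, 814.37, 894.01 and 489.86 FPKM in HFD livers (5.38, adjusted p = 0.013). Every HFD mouse was far above every CD mouse. The hormone Fgf21 went from 1.17 ± 1.09 to 14.8 ± 9.0 FPKM and the fatty acid transporter Cd36 from 6.76 ± 2.94 to 76 ± 29.2 FPKM. The partner receptor Rxra (0.05, adjusted p = 0.87) and the coactivator Ppargc1a (0.25, adjusted p = 0.14) did not pass. Cyp4a and Acot genes lie in families of similar copies, whose reads may have been divided uncertainly.

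Markers of other cells were read beside the liver results. At week 8, 2 of 8 hepatocyte markers were lower, beside 1.33% of all genes. None of the 8 macrophage and 6 stromal markers passed. The summed macrophage markers ran from 83 to 156 FPKM in CD livers and from 92.3 to 160 FPKM in HFD livers. The sum of the 4 adipocyte markers was 0.05 to 0.86 FPKM in CD livers and 4.74 to 18.3 FPKM in HFD livers. The one adipocyte marker tested was higher, but no CD liver reached 1 FPKM. It thus met the filter only through the HFD livers, where it was high. None of the 10 clock genes tested differed at week 8, although collection times were not given. Of the 5 blood markers 1 was lower at week 8, the sum being 443 to 2040 FPKM in CD and 177 to 891 FPKM in HFD livers. Of 8 macrophage markers 3, 2 and 5 were higher in HFD livers at weeks 12, 16 and 20, and of 6 stromal markers 4, 5 and 0. At these weeks 9.42%, 6.74% and 1.73% of all genes were higher. In the mean over the weeks 7 of 8 macrophage and 6 of 6 stromal markers were higher and 3 of 8 hepatocyte markers were lower. In that fit 35.8% of all genes were higher and 6.78% lower. The part of these values in the results was not tested.

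In islets HFD changed few of the genes and by little. No member passed at week 4 or week 8. An unadjusted p under 0.05 was found in 3 of 31 members at week 4, 9.68% beside 7.38% of all genes, and in 6 of 32 at week 8, 18.8% beside 28.9%. Over all genes 0% were higher and 0% lower at week 4, and 0.602% were higher and 4.67% lower at week 8. Pdk4 was the 1 lower member at week 12 (all genes 2.18% higher, 2.35% lower), at week 20 (1.53% and 3.21%) and at week 24 (6.57% and 1.73%). At week 16 Hadh was higher and Ech1 and Pdk4 were lower (3.3% and 5.15%), and 1 call was left without CD403 or CD405 or HFD416 or HFD418. With insulin left out of the library total, 9 members were higher and 1 lower at each of weeks 12 and 16, but this scaling also moved the median of all genes, from 0.008 to 0.187 at week 12 and from 0.011 to 0.135 at week 16.

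Pdk4 was the one islet member with a large change. At week 16 its FPKM were 9.37, 5.32, 7.82 and 6.75 in CD and 1.38, 1, 1.16 and 1.51 in HFD islets. Every HFD value was below every CD value (-1.86 ± 0.14, adjusted p = 6.38e-06). The groups were also apart at week 12 (6.76 ± 1.34 against 1.78 ± 0.711 FPKM), week 20 (5.08 ± 0.816 against 1.51 ± 0.621) and week 24 (6.02 ± 1.99 against 1.3 ± 0.429). At week 4 the groups were apart as well, but the difference of -0.53 ± 0.12 did not pass (adjusted p = 0.55), and at week 8 they overlapped (-0.12 ± 0.36). The HFD difference of the early weeks was smaller in size than that of the late weeks (0.86 ± 0.20 between them, adjusted p = 0.00711), and Pdk4 was the only one of 33 members with such a difference, beside 3.16% of all genes.

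In the weeks in which Pdk4 was lower, 4 or 5 of 5 alpha and 3 of 3 delta cell markers were lower too, as were 4 alpha and 2 delta cell markers at week 8, where Pdk4 did not pass. At week 16, 5 of 5 alpha cell markers and 3 of 3 delta cell markers were lower in HFD islets, their sums being between 9140 and 14000 against between 2050 and 4170 FPKM for alpha and between 2180 and 2900 against between 508 and 1140 FPKM for delta cells. The glucagon gene Gcg had 13203.58, 8525.33, 11895.8 and 10646 FPKM in CD and 2098.47, 1659.43, 2189.85 and 3595.9 FPKM in HFD islets. Of 11 acinar markers 1 was lower at week 16, with sums of 37400 to 69600 FPKM in CD and 6260 to 20000 in HFD islets, whereas at week 20 none passed and the sums were 6520 to 19400 in CD and 14100 to 34900 in HFD islets. All 5 blood markers were higher at weeks 16 and 20. Of 8 beta cell markers 5 were higher at each of weeks 12 and 16, 1 at week 20 and 2 at week 24. At week 8, 1 of them was lower, and in the mean over the weeks 4 were higher and 2 lower. Averaged over the 6 weeks, Pdk4 was -1.15 ± 0.10 (adjusted p = 4.27e-12), and with the Gcg level as a further term, added after the values were seen, it was -0.26 ± 0.23 (adjusted p = 0.894). Gcg and diet moved together, and this value does not tell them apart.

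**Figure D5:**
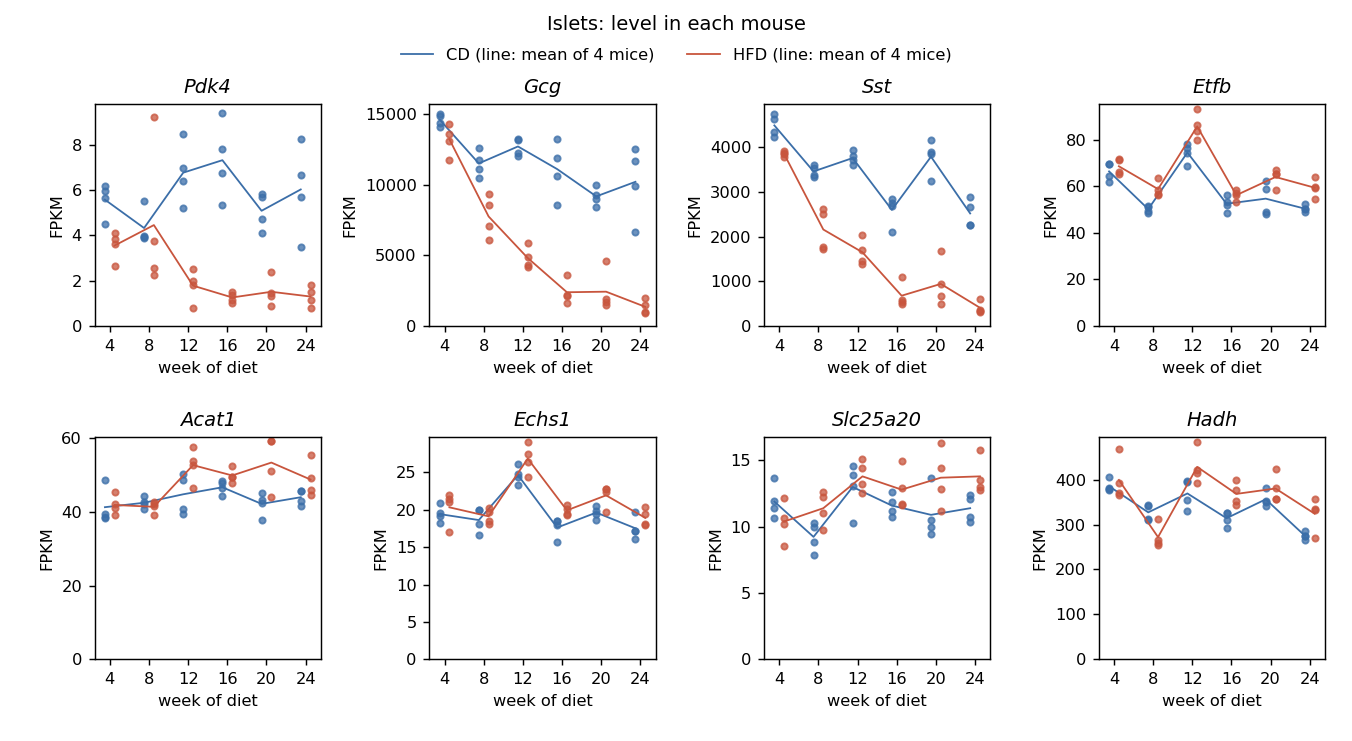
FPKM of 6 of the 36 genes and of the hormone genes Gcg and Sst in each islet library (points) by week, with CD in blue and HFD in red; lines join the means of 4 mice and the vertical axes start at 0. Pdk4 lies lower in HFD mice at week 4 and from week 12 on, Gcg from week 8 on and Sst at every week. The other 5 genes differ by small amounts.

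Averaged over the 6 weeks, 8 of the 33 members tested in islets were higher and 3 lower, where 16.6% of all genes were higher and 22% lower. The median was 0.03 in the members and -0.01 in all genes. The split of higher to lower became 13 to 2 with median-ratio scaling and 19 to 2 with insulin left out of the total. The higher genes were Slc25a20, Etfb, Echs1, Hadh, Acaa2, Decr1, Acaa1a and Acat1, by between 0.09 and 0.22, and beside Pdk4 the lower ones were Abcd2 and Cpt2. Abcd2 was under the filter of 1 FPKM in each weekly islet comparison. Without week 20 the calls fell from 11 to 6 and without week 24 to 5.

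The differences of the higher islet genes were small. Etfb had its largest at week 24, with 49.14, 52.28, 50.12 and 50.12 FPKM in CD and 59.25, 54.39, 64.06 and 59.85 FPKM in HFD islets. The groups did not overlap, and the mean over the weeks was 0.17 ± 0.03 (adjusted p = 3.26e-06). Echs1 at week 16 had 15.63, 18.42, 17.9 and 18.43 FPKM in CD and 19.42, 20.11, 20.61 and 19.33 FPKM in HFD islets, again without overlap, and its mean difference was 0.11 ± 0.03 (adjusted p = 0.0032).

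Acat1 at week 20 had 37.77, 43.38, 45.16 and 42.37 FPKM in CD and 51.19, 43.95, 59.12 and 59.21 FPKM in HFD islets, 1 HFD mouse lying among the CD mice. Slc25a20 at week 20 had 9.49, 9.97, 13.67 and 10.51 FPKM in CD and 11.18, 12.86, 16.33 and 14.46 FPKM in HFD islets, with overlap. Their mean differences were 0.13 ± 0.03 (adjusted p = 0.0022) and 0.15 ± 0.05 (adjusted p = 0.00987). Hadh was higher at week 16, with 314 ± 16.4 FPKM in CD and 368 ± 25.7 in HFD islets (0.23 ± 0.07, adjusted p = 0.0485), and over the weeks by 0.09 ± 0.03 (adjusted p = 0.0265).

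Of the lower genes, Abcd2 had a mean of 0.84 FPKM in CD islets. It was under the filter in every weekly islet comparison and was tested only in fits over the weeks. At week 16 it had 0.83, 1.03, 1.13 and 1.29 FPKM in CD and 0.67, 0.98, 0.48 and 0.68 FPKM in HFD islets, with overlap. Only CD mice reached 1 FPKM there, so that Abcd2 met the filter at least in part through the group where it was higher. Its mean difference was -0.18 ± 0.04 (adjusted p = 0.000124) and rests on values near the floor. Cpt2 passed narrowly (-0.09 ± 0.04, adjusted p = 0.0407) and lost its call under 30 alternatives. Cpt1a had its largest islet difference at week 8, with 17.8, 10.73, 18.79 and 12.81 FPKM in CD and 18.82, 16.01, 20.81 and 20.6 FPKM in HFD islets. These groups overlapped, and over the weeks Cpt1a had a difference of 0.02 ± 0.06 (adjusted p = 0.822). Ppara at week 16 had 0.3, 0.37, 0.25 and 0.31 FPKM in CD and 0.14, 0.16, 0.25 and 0.18 FPKM in HFD islets, values too low to be tested.

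In CD islets 27 of 33 members differed between weeks, beside 77.5% of all genes. The ratio of the highest to the lowest weekly mean had a median of 1.4 in islets and 1.68 in liver.

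The difference between the tissues was tested directly. The mean HFD effect was larger in liver than in islets for 29 of the 36 genes and smaller for Etfb (-0.18 ± 0.05, adjusted p = 0.00407), and 43.9% of all 13346 genes differed in either direction. Ppara, Slc27a2 and Vnn1 are among the 29, but they were under the filter in islets and entered this fit through liver, where they are high, so that their difference is their liver effect beside islet levels near the floor of the scale. Of the 33 members tested in both tissues 26 had a larger and 1 a smaller effect in liver. Pdk4, higher in HFD livers and lower in HFD islets, had the largest one of these 33 (2.58 ± 0.42, adjusted p = 8.09e-07), then Abcd2 (1.35 ± 0.17), which lay around 1 FPKM in islets. Acsl1, Slc25a20, Echs1, Acaa2, Eci2 and Crot did not pass. With median-ratio scaling 17 genes had a larger and 3 a smaller effect in liver, and the difference of Echs1 turned to -0.14 and that of Acadvl to -0.01.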

How the data were processed

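Polyadenylated RNA of liver and islets was sequenced by the authors, and 96 libraries of 48 mice were analysed here. The values deposited by the authors are FPKM per gene and library, rounded to 2 decimals. The submitters' processing notes name HISAT2 2.0.4, Bowtie2 2.2.5, RSEM 1.1.12, DESeq2 and the build GRCm38.p5 without their roles. The table holds no read counts, so that the depth per library is unknown and no counting interval could be given. Of the 21990 genes listed 1835 had no values. Columns with the authors' own comparisons, which hold fold changes and p and q values from DEGseq, were not used.

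Groups came from the labelled diet, tissue and week. Values were taken as log2(FPKM + 1), a scale that understates the change of low genes, and a gene was tested where 4 or more of the fitted libraries reached 1 FPKM. HFD was compared with CD within each tissue and week, with 4 mice a group, by limma 3.58.1 (R 4.3.3) with a variance trend and robust variances, two-sided, and p-values were adjusted by Benjamini-Hochberg over all genes tested. A gene was called at an adjusted p under 0.05. Fits over the 48 libraries of a tissue gave the mean over the weeks, early against late weeks and CD over the weeks (a moderated F test), and a fit over both tissues gave the difference between them. Ages and collection days are not given beyond the week, and mice are separate animals by their labelled numbers. The fit was tested on simulated data.

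The same number marks the same mouse in both tissues by the titles, and a fit with the mouse as a block was the alternative. Over genes, the deviations of paired libraries correlated with a median of 0.117 (from -0.0519 to 0.239, over 0.1 in 26 of 48 pairs). Other alternatives were a pseudocount of 0.1, no filter, median-ratio scaling, insulin left out of the total, a minimum log2 change of 1, all 12 groups in one fit, and each mouse or week left out (a group of 3 was then compared with 4, with a filter of 3 libraries in the weekly fits).

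The members and lists were chosen with earlier results of these data known. Genes given in every mouse were the first 8 in liver and the first 6 in islets by the moderated t of the mean over the weeks, at the week of their largest difference, with Ppara, Cpt1a, Pdk4 and Acaa1b in liver and Ppara and Cpt1a in islets whatever they did. Other members were given by role, and Acadm, the weekly Pdk4 values and Cyp4a14 by mouse were chosen after their values were seen. Some other genes of the pathway are not reported here. Upstream sequences are from RefSeq (GRCm38.p6), which had no window for 7 members. Figures were drawn with matplotlib 3.10.9.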

Additional observations from a re-analysis of the deposited data

Results flagged for a closer look

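The effect of HFD differed between liver and islets by the test of the difference itself for 29 members with a larger and 1 with a smaller effect in liver, and for 26 and 1 of the 33 members tested in both tissues. Of the genes given in every mouse, the difference on the log2 scale was 0.306 for Cpt1a, 0.386 for Acads, 0.405 for Hadh, 0.371 for Eci1, 0.526 for Ech1, 0.421 for Hsd17b4, 0.497 for Acat1 and 2.582 for Pdk4. It was 1.347 for Abcd2 and 0.587 for Acaa1b, whose CD means in islets lay under 1 FPKM. The values of 0.421 for Ppara and 1.735 for Vnn1 say nothing of an islet effect, since both genes were too low in islets to be tested there. The difference was -0.176 for Etfb, whose effect was the smaller one in liver. In islets the HFD effect on Pdk4 differed between weeks 4 to 12 and weeks 16 to 24 by 0.859.

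One sample stood apart from its group. In HFD livers of week 8, Eci1 was 246.27 FPKM in 1 mouse and between 212.95 and 218.37 FPKM in the other 3, so that the gap was 0.837 of the whole range, above Dixon's limit for 4 samples. It was 1 of 40 groups examined, and chance flags about 1 in 20 groups.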

How the results depend on the processing

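The liver counts at weeks 4 and 24 and for early against late weeks, the islet count at week 4, CD over the weeks and the tissue levels stayed within 1.5 times under every alternative run. Requiring a log2 change of 1 left 10 members at liver week 8, 1 at week 12, 1 at week 20 and 3 in the liver mean, 1 in islets at week 16 and in the islet mean, 0 in the islet contrast of early and late weeks and 3 in the difference between tissues. With no filter there were 3 calls at liver week 12, 1 at week 20 and 2 in the islet contrast of early and late weeks. Median-ratio scaling gave 3 at liver week 12 and 1 at islet week 8, and turned the tissue difference of Acadvl to -0.01 (adjusted p = 0.902) and of Echs1 to -0.137 (0.0346). It moved the median of all genes from 0.111 to -0.022 at liver week 12, and at islet week 8 from -0.106 to 0.006. With all 12 groups in one fit there were 4 and 9 at liver weeks 16 and 20, and 3, 2, 6 and 3 at islet weeks 8, 12, 20 and 24. With insulin left out there were 10, 10 and 3 at islet weeks 12, 16 and 24 and 21 in the islet mean, and Etfa turned to 0.075 and Hadhb to 0.077. The islet mean had 6 calls without week 20 and 5 without week 24. The cause was not tested.

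With each mouse left out, counts ran from 24 to 30 at liver week 8, 1 to 10 at week 12, 0 to 2 at week 16 and 0 to 5 at week 20. In islets they ran from 0 to 3 at week 8 (3 without HFD217), 1 to 3 at week 12 (3 without CD304), 1 to 2 at week 16, 1 to 2 at week 20 (2 without HFD511 or HFD516) and 1 to 2 at week 24 (2 without HFD614), and 1 to 2 for early against late weeks (2 without CD304 or HFD118 or HFD614). With the mouse as a replicate block 31 members differed between tissues, Crot now passing (0.34 ± 0.125, adjusted p = 0.0249), and 35 between tissue levels, and no other call changed. Depth is unknown, so what it limits could not be given.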
